A study of Mus musculus with 26 samples.

Results

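The G proteins and the enzymes that set cyclic AMP (cAMP) below the short-chain fatty acid receptor FFAR3 were examined in group 2 innate lymphoid cells (ILC2s) of the mouse lung. The 10 genes were Gnai1, Gnai2, Gnai3, Gnaq, Gna11, Gnas, Rgs1, Rgs2, Adcy7 and Pde4b, taken by symbol from the Ensembl gene identifiers, and all 10 were found among the 55401 genes in the count tables. RNA was sequenced from freshly sorted ILC2s of naive wild-type females, 3 of the Collaborative Cross strain CC030 (CC030GeniUnc in the labels) and 3 of C57BL/6J. A further 20 libraries came from ILC2s of 5 CC030 mice, all grown with IL-33, TSLP and human IL-2. The cells of each mouse were split between the FFAR3 agonist AR420626 at 10 µM and its DMSO vehicle, and cells were taken at day 2 and at day 6, giving 5 libraries for each treatment and day. Every cultured library therefore comes from activated CC030 cells, and no cultured C57BL/6J cells were analysed here. In such bulk libraries, fewer cells of a type and less RNA per cell cannot be told apart.

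FFAR3 is a receptor that couples to the Gi family of G proteins. On activation the alpha subunit of Gi inhibits adenylyl cyclase, the enzyme that makes cAMP, while the alpha subunit of Gs, encoded by Gnas, stimulates it, and those of Gq, encoded by Gnaq and Gna11, turn on phospholipase C beta. RGS proteins speed the shut-off of alpha subunits, phosphodiesterases of the PDE4 family break cAMP down, and cAMP acts largely through protein kinase A (PKA) and the transcription factor CREB.

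Libraries differed strongly in how many reads fell in genes. The totals in genes were 1324595 to 1524751 in naive CC030 and 13533363 to 15234305 in naive C57BL/6J, yet 43527 to 46111 genes held a count in each CC030 library against 15946 to 16553 in each C57BL/6J library. In the cultured libraries 2.06 to 11.1% of reads lay in genes and 74.5 to 85.3% in no annotated feature. AR420626 mouse 4 at day 2 held only 227445 counts in genes, and vehicle mouse 5 at day 2 held 5320028. For ILC2 identity, all 11 ILC2 markers had at least 10 counts in each C57BL/6J library, with summed levels of 8262 to 10218 CPM (counts scaled to a common library total), whereas the 4 markers of NK cells and ILC1 and the 3 of eosinophils were at 0 there. Other markers were not absent. The 7 T cell markers summed to 711, 759 and 325 CPM in the 3 C57BL/6J libraries, mostly from Cd3g (538, 734 and 321 CPM), with Trac at 786, 210 and 1 counts and Cd8a and Cd8b1 at 0. The 5 markers of mast cells and basophils summed to 413, 667 and 205 CPM, mostly from Cpa3 (377, 652 and 199 CPM) with Mcpt8 and Ms4a2 at 0, and the 3 platelet markers to 129, 55.3 and 52.8 CPM. The part of such cells in the levels given here was not tested. In CC030 the ILC2 markers summed to 265 to 291 CPM in naive libraries and 55.1 to 323 CPM in cultured ones, so the labelled cell type could be checked only in C57BL/6J.

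The upstream DNA is shown for the most abundant of the 10 genes (Rgs2), an abundant Gi gene (Gnai3) and the one Gi gene at or near 0 (Gnai1), with capitals marking the cAMP response element half-site TGACG on either strand. The sequences are from RefSeq (GRCm38.p6), are written 5′ to 3′ toward the start of the gene and leave out bases inside an annotated exon. They lie at chr1:144004162-144004399, chr3:108146153-108146402 and chr5:18360414-18360663, all on the minus strand.
Rgs2: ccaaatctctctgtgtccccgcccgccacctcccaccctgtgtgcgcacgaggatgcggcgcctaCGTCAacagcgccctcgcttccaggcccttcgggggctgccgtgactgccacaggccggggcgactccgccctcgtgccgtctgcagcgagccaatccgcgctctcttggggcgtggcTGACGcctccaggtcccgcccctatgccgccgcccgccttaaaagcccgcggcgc
Gnai3: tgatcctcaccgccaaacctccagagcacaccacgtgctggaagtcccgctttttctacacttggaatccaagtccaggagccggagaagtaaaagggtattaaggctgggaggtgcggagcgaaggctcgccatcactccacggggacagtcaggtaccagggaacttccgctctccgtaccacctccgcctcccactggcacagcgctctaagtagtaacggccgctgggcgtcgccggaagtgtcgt
Gnai1: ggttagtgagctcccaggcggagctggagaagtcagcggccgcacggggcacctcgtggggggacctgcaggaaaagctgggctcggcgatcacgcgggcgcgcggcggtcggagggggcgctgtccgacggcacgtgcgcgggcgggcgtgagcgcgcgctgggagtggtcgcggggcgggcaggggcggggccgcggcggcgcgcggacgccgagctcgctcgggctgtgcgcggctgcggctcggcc

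Rgs2 carried 2 half-sites and 4 matches to the GC box GGGCGG. Gnai3 carried none of either, and Gnai1 carried no half-site and 3 GC boxes. The full element TGACGTCA and the TATA box TATAAA were absent from all 3 stretches. Among 32851 RefSeq windows of 250 bases upstream of mouse gene starts, searched on both strands, 17.8% held the half-site (which the full element contains), 1.55% the full element, 32.7% the GC box and 12.4% the TATA box. RefSeq windows were at hand for 8 of the 10 genes, not for Gnai2 and Rgs1. No window of the 8 held the full element, and Rgs2 was the one gene with 2 half-sites in a window, while single half-sites stood in 3 of 4 Gnas windows, 1 of 3 Adcy7 windows and 1 of 4 Pde4b windows.

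Naive C57BL/6J ILC2s carried abundant Gnai2, Gnai3 and Gnas, very high Rgs2 and much less Gnaq and Gna11. The levels below are CPM scaled between the 3 libraries, with gene positions of GRCm38 in brackets, or CPM per kilobase of exon where genes are set against each other. Per kilobase, 8 of the 10 genes lay at or above 1.95, the median of the 14119 protein-coding genes with a count, and Gna11 and Gnai1 lay under it. Over the longest transcript of each gene Gna11 (1.06) and Gnai1 (0.0235) again lay under 1.95, and Gnaq (2.49) lay above it. A median over that length is not given, so whether Gnaq reached it is not shown.

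Rgs2 (chr1:143999338-144004161, minus strand), which acts mainly on Gq and also binds adenylyl cyclase, had 3309, 2895 and 2254 CPM in the 3 libraries. Per kilobase it averaged 777 ± 147 (SD, n = 3) and ranked 77th of the 14119 genes. It stood alone at the top, since its lowest library (621) lay above the highest library of any other of the 10 genes (118). Rgs1 (chr1:144242296-144249242, minus strand), which acts on Gi and Gq and is known for damping chemokine receptor signals, had 631, 525 and 335 CPM and averaged 71.5 ± 21.6 per kilobase (SD, n = 3). Rgs2 was 10.0 to 12.9 times Rgs1 per kilobase, in 3 of 3 libraries.

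Among the Gi genes, Gnai3 (chr3:108107280-108146146, minus strand) had 165, 205 and 224 CPM and Gnai2 (chr9:107614125-107635367, minus strand) had 86.0, 106 and 277 CPM. Gnai1 (chr5:18265135-18360355, minus strand), the Gi gene best known from brain, had 0, 3 and 0 counts, the 3 counts being 0.221 CPM. Per kilobase Gnai3 averaged 60.7 ± 9.21 and Gnai2 41.3 ± 27.8 (SD, n = 3 each). The ranges of Gnai3 and Gnai2 overlapped, Gnai3 being 2.22 and 2.25 times Gnai2 in libraries 1 and 2 but 0.936 times in library 3. Over the longest transcript of each gene these ratios were 1.30, 1.32 and 0.548 and the order of the means turned (60.7 for Gnai3 and 70.5 for Gnai2), so the data do not order the 2 genes.

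Gnas (chr2:174284320-174346744, plus strand) had 531, 551 and 1323 CPM and averaged 71.7 ± 40.4 per kilobase (SD, n = 3), and its range overlapped those of Rgs1 and Gnai3. Its level per kilobase depends on the length used. Its annotated exons span 11186 bases in 24 transcripts, and over the longest transcript the mean was 203 and the lowest library (135) lay above the highest of Rgs1 (108) and of Gnai2 (125). A second gene model, Gm20721, lies on the opposite strand with 99.0% of its exon bases over Gnas exons, and held 6666, 7966 and 23396 counts against 6761, 7479 and 22773 for Gnas. The Gm20721 row was thus 0.986 to 1.07 times the Gnas row in every library. The kit named in the labels does not mark strand, so reads of the 2 models cannot be told apart.

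Gnaq and Gna11 were low beside Gnai2, Gnai3 and Gnas, with Gnaq near the median of expressed genes and Gna11 under it. Gnaq (chr19:16132831-16387463, plus strand) had 8.10, 22.1 and 12.03 CPM and Gna11 (chr10:81528724-81545190, minus strand) had 3.85, 0.810 and 6.22 CPM, or 2.28 ± 1.17 and 0.885 ± 0.662 per kilobase (SD, n = 3 each), and their ranges overlapped. Over 16 G alpha genes, the summed level per kilobase was 46.5 ± 4.95% Gi (Gnai1 to Gnai3), 30.9 ± 3.98% Gnas and 1.53 ± 0.574% Gnaq with Gna11 (SD, n = 3). Over the longest transcripts the order of Gi and Gnas turned, with 34.1 ± 3.33% Gi, 50.6 ± 3.69% Gnas and 1.00 ± 0.391% Gnaq with Gna11 (SD, n = 3). Gnaq with Gna11 held a small share over either length. Of the 10 further G alpha genes, 3 lay at or above the median of expressed genes. Gna15, a Gq-family subunit of blood cells, held 11.3 ± 4.81% of the sum, and Gna13, of the G12 family, 6.39 ± 2.08% (7.08 ± 2.99% and 3.90 ± 1.42% over the longest transcripts, SD, n = 3).

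Adcy7 (chr8:88272403-88329962, plus strand), an adenylyl cyclase found widely in immune cells, had 76.5, 95.7 and 49.6 CPM and averaged 11.0 ± 3.43 per kilobase (SD, n = 3). None of the 9 further adenylyl cyclases reached the median of expressed genes. The highest, Adcy3, averaged 1.78 ± 1.499 per kilobase, with 4, 232 and 274 counts. Pde4b (chr4:102087543-102607259, plus strand), the PDE4 gene most studied in inflammation, had 84.0, 48.5 and 74.6 CPM and averaged 6.54 ± 1.74 per kilobase (SD, n = 3), or 16.04 over its longest transcript. The order of Adcy7 and Pde4b depended on the length used. Per kilobase of exon Adcy7 was 1.43, 3.09 and 1.04 times Pde4b in the 3 libraries, and over the longest transcripts 0.659, 1.43 and 0.481 times, with a mean of 12.4 for Adcy7. Among 15 further cAMP phosphodiesterases Pde7a (13.3 ± 1.41), Pde3b (7.43 ± 3.98) and Pde8a (4.09 ± 1.07) reached the median, while Pde4d averaged 0.946 ± 0.548 per kilobase (SD, n = 3).

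**Figure D1:**
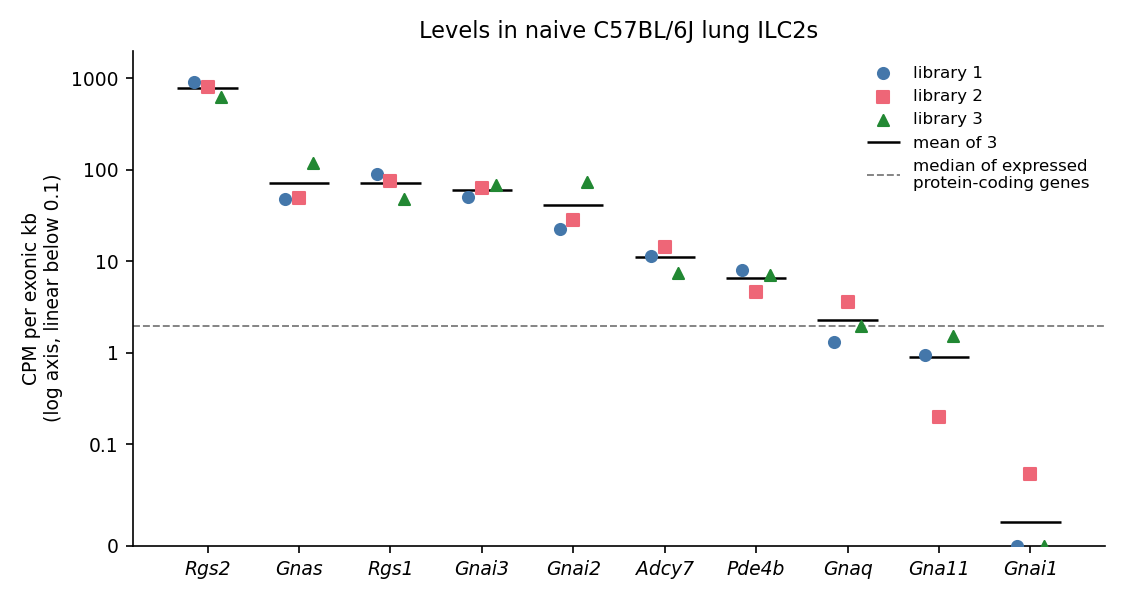
CPM per kilobase of exon of the 10 genes in the 3 naive C57BL/6J libraries (points), with their mean (bar) and the median of expressed protein-coding genes (dashed, 1.95), on a log axis that is linear below 0.1. Rgs2 stands above all others in each library, Gnas, Rgs1, Gnai3 and Gnai2 overlap, and Gnai1 is at 0 in 2 libraries.

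In order of the mean per kilobase of exon the genes ran Rgs2, Gnas, Rgs1, Gnai3, Gnai2, Adcy7, Pde4b, Gnaq, Gna11 and Gnai1. Neighbours did not overlap at 4 steps, below Rgs2, below Gnai2, below Pde4b and below Gna11, and overlapped at the other 5. Over the longest transcripts Gnai2 stood above Gnai3 and Pde4b above Adcy7, and Gnas no longer overlapped Rgs1. Library 3 set much of the spread. Relative to the mean of libraries 1 and 2 it held 2.89 times the Gnai2, 2.45 times the Gnas and 2.67 times the Gna11 CPM, and 0.579 times the Rgs1 and 0.577 times the Adcy7 CPM. Such ratios were not rare, as 19.1% of 6432 genes (those reaching 50 counts in all 3) exceeded a ratio of 2 and 18.8% lay under 0.5. Without library 3 the mean per kilobase was 48.4 for Gnas, 25.4 for Gnai2 and 83.2 for Rgs1.

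Some markers of other lung cells stood highest in library 3. The surfactant gene Sftpc of alveolar type 2 epithelium had 172153 counts there, against 1 and 4 in libraries 1 and 2, and carried the sum of the 3 epithelial markers almost alone (11360 CPM, against 56.1 and 29.3). The other epithelial markers did not stand apart, with 52.0 CPM of Epcam against 44.1 and 28.6, and 7.55 CPM of Scgb1a1 against 11.9 and 0.486. The 6 macrophage and neutrophil markers summed to 970.2 CPM in library 3, against 0.148 and 12.8, nearly all from Lyz2 (14729 counts, against 1 and 167), while Marco, S100a8 and S100a9 were at 0 in all 3 libraries. The 4 B cell markers summed to 83.9 CPM, against 9.98 and 29.5, and the 2 endothelial markers to 26.5 CPM, against 3.77 and 11.1. T cell, mast cell and basophil, and platelet sums were lowest in library 3. The part of these cells in the higher Gnas and Gnai2 of library 3 was not tested.

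The rest of the pathway in C57BL/6J was read from lists of related genes. Of 17 G beta and gamma genes 8 lay at or above the median of expressed genes, led by Gng5 (123 ± 60.3 per kilobase), Gnb1 (59.2 ± 17.7) and Gng2 (35.9 ± 13.8). Of 19 further RGS genes 4 did, namely Rgs18 (249 ± 100.3), Rgs10 (107 ± 50.8), Rgs19 (71.8 ± 20.7) and Rgs14 (4.83 ± 6.46, SD, n = 3 each), and 8 had no count in any library. Of 17 PKA subunits and other cAMP effectors 8 did, led by Prkar1a, the regulatory subunit of PKA (77.6 ± 43.1), and Crem, a cAMP-responsive transcription factor (46.7 ± 10.5). Of 7 phospholipase C beta and IP3 receptor genes 3 did, led by Itpr2 (5.19 ± 1.19), and of 7 receptor kinases and arrestins 3 did, led by Grk2 (6.39 ± 1.61) and Arrb2 (6.09 ± 4.26, SD, n = 3 each). Of the 4 free fatty acid receptors Ffar2 alone did, with 299, 208 and 396 counts (7.39 ± 1.65 per kilobase, SD, n = 3). Of 12 CREB target genes 9 did, with Junb (679 ± 879) and Fos (126 ± 128) varying more than their means. Junb had 67068 counts in library 3, against 5231 and 5108 in libraries 1 and 2.

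The strain comparison asks how the same rows stood in CC030. The rows of the abundant genes held far fewer counts in CC030. Rgs2 had 5, 16 and 26 counts in naive CC030 and 42092, 39305 and 38784 in naive C57BL/6J. Gnas had 108, 128 and 109 counts in CC030 and 6761, 7479 and 22773 in C57BL/6J, Gnai2 31, 37 and 61 against 1094, 1436 and 4767, and Gnai3 24, 32 and 35 against 2098, 2785 and 3850. Rgs1 had 9, 27 and 25 counts in CC030 and 8025, 7129 and 5759 in C57BL/6J, and Adcy7 18, 61 and 51 against 973, 1299 and 854. Differences were smaller for Pde4b (117, 82 and 91 counts in CC030 and 1068, 659 and 1284 in C57BL/6J), Gnaq (77, 60 and 101 against 103, 300 and 207) and Gna11 (6, 11 and 33 against 49, 11 and 107), in libraries whose totals differ by the depths given above. Gnai1 had more counts in CC030, with 12, 20 and 11 against 0, 3 and 0 in C57BL/6J. As CPM of counts in genes, Gnaq too was higher in CC030 (40.0 to 66.2 against 7.61 to 20.8). Pde4b (54.7 to 88.3 against 45.7 to 84.3) and Gna11 (4.53 to 21.6 against 0.763 to 7.02) overlapped between the strains.

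**Figure D2:**
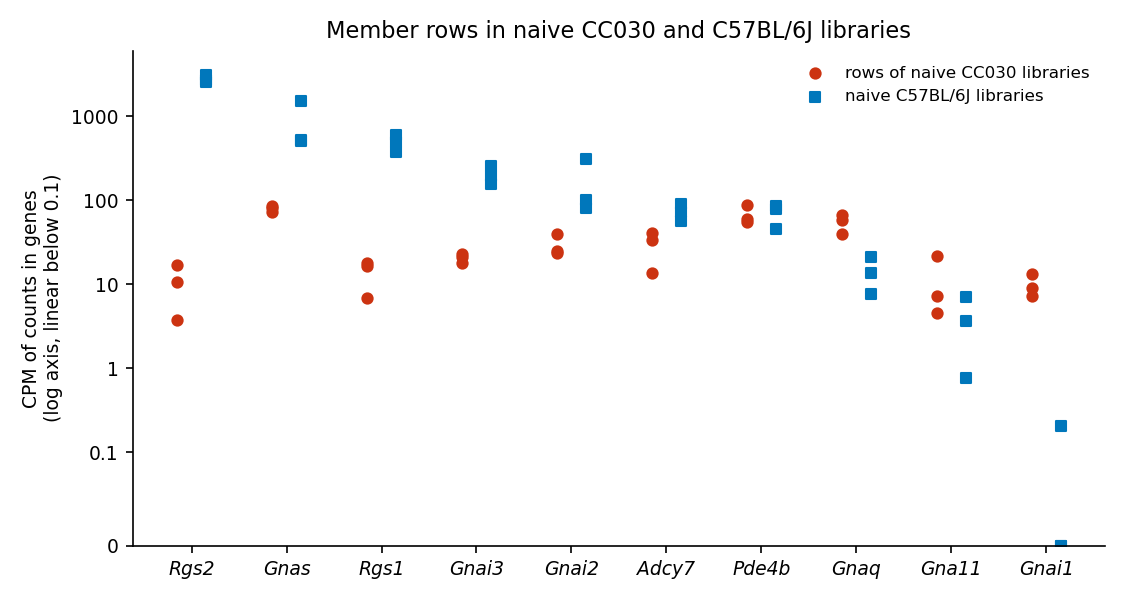
CPM of counts in genes for the 10 rows in 3 naive CC030 libraries (circles) and 3 naive C57BL/6J libraries (squares), on a log axis that is linear below 0.1. The CC030 rows lie between 3.77 and 88.3 CPM whatever the level in C57BL/6J, which runs between 0 and 3110 CPM.

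With edgeR, 8 of the 10 rows passed an adjusted p of 0.05, 7 lower and 1 higher in CC030. Over all 35551 rows tested, 76.3% passed, 12.2% lower and 64.1% higher. As CPM of counts in genes, the groups overlapped for Pde4b and Gna11. How many of all rows overlapped was not counted, so nothing particular to these genes can be read from it. The log2 fold changes were -9.25 ± 0.72 for Rgs2 (SE, adjusted p = 0.000446), -6.37 ± 0.58 for Rgs1, -4.52 ± 0.50 for Gnas, -4.44 ± 0.38 for Gnai3, -3.59 ± 0.58 for Gnai2, -2.53 ± 0.55 for Adcy7, -1.22 ± 0.41 for Pde4b and 5.67 ± 1.09 for Gnai1. Gnaq (0.76 ± 0.58) and Gna11 (0.44 ± 0.88) did not pass. Gnai1 passed the filter on low counts only through CC030, as it had 0, 3 and 0 counts in C57BL/6J. Only a higher call was therefore open to Gnai1, and that call is no test of direction. How many of the 64.1% higher rows passed the filter in this way was not counted. The median over the 10 rows was -3.06, where the median of all rows tested was 7.03. DESeq2 moved the median of all rows by 0.79 and called Gnaq higher (1.34, adjusted p = 0.0314). The call for Pde4b was lost with DESeq2 (adjusted p = 0.185), with its size factors in edgeR (adjusted p = 0.199), on rows of 10 or more counts throughout (adjusted p = 0.441) and without CC030 replicate 2 (adjusted p = 0.0751) or 3 (adjusted p = 0.0796). Strain and alignment cannot be told apart in these differences, since the reads of each strain were aligned to a genome of their own. None of the 10 CC030 rows was shown to hold its own gene.

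The displacement was measured around each gene. CC030 reads had been aligned to a pseudogenome built on mm9 and moved to mm10 coordinates, and the counts per exonic kilobase of the CC030 libraries were correlated, across the genes of a window, with the C57BL/6J level found a given distance away. A displacement of 0 means that the rows of a window best match their own positions. A positive one means that they best match what lies that far toward higher coordinates in C57BL/6J. The value describes the window, and the reads in a single row were not checked. Genes in a window share libraries and are not independent, so the correlations are descriptions.

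None of the 10 genes had a displacement of 0 (within 5 kb) in either set of CC030 libraries. In the 10 day 6 libraries, windows of 4 and 8 Mb to each side agreed within 25 kb for 7 of the 10 genes. Gnai2 stood at 99 kb in both (r = 0.53 over 297 genes, and -0.16 at 0), Gnai3 at 197 and 196 kb, Gna11 at 537 kb in both, Gnai1 at 491 kb in both, Gnaq at -68 and -74 kb, Pde4b at 327 and 326 kb (r = 0.40 and 0.45) and Adcy7 at -2524 kb in both. Gnas (44 and 152 kb), Rgs1 (-2073 and -1896 kb) and Rgs2 (-1475 and -1896 kb) gave no single value. Windows of 2 Mb gave 99, 197 and 537 kb again for Gnai2, Gnai3 and Gna11, but other values for Gnaq (1239 kb), Adcy7 (624 kb) and Pde4b (76 kb). In the naive CC030 libraries the windows agreed for only 2 genes, Gnai3 (385 kb) and Gnas (50 and 48 kb), with r of at most 0.32. In windows of 4 Mb the best r barely exceeded the next for Gnai1 (0.375, 0.367), Gnaq (0.224, 0.222) and Gna11 (0.2285, 0.2258). A best value other than 0 in the naive libraries therefore does not by itself show a displacement.

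**Figure D3:**
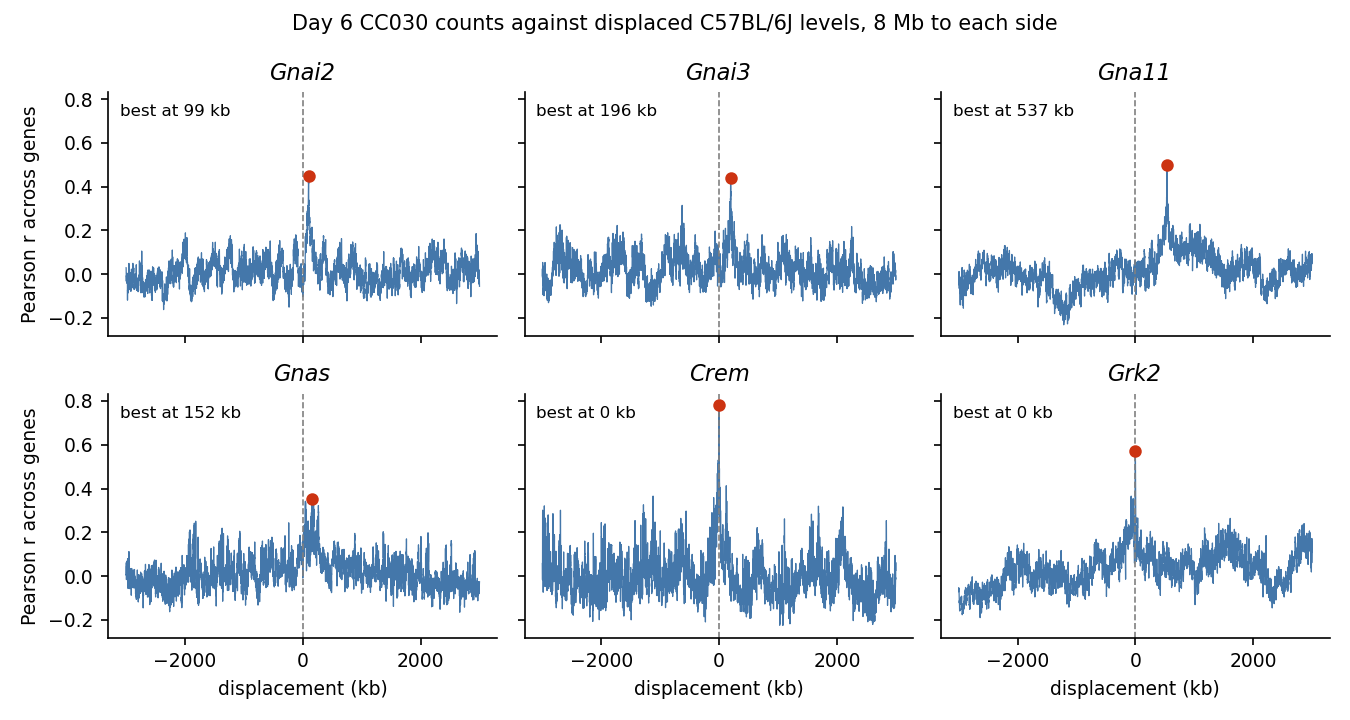
Pearson r across the genes within 8 Mb to each side, between counts per exonic kb of the day 6 CC030 libraries and the C57BL/6J level displaced by the distance on the x axis, around 4 of the 10 genes and around Crem and Grk2. The best value (dot) is at 99 kb for Gnai2, 196 kb for Gnai3 and 537 kb for Gna11, is one of several near-equal peaks for Gnas, and is at 0 for Crem and Grk2.

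Moved by these distances, the exons of some of the 10 genes fell on the exons of other rows. Gnai2 exons covered 968 bases of Cacna2d2, a calcium channel subunit gene with 5856 counts in the 10 day 6 CC030 libraries and 0 in the 3 naive C57BL/6J libraries. Of the C57BL/6J genes with counts that lie at that distance, Gnai2 covered the most of Cacna2d2, ahead of Gm9917 (117 bases), Tusc2 (94 bases) and Sema3b (24 bases). Gnai3 exons covered 176 bases of the pseudogene Gm9515 and 185 bases of Gstm7, which held 3765 and 499 counts in the day 6 CC030 libraries and 0 in C57BL/6J, and no other gene with counts in C57BL/6J lay there. Gna11 covered 111 bases of Gng7 (2948 counts at day 6, 12 in C57BL/6J), but Ncln covered 1973 bases of it. Gnai1 exons covered 130 bases of Cd36, which held 74 counts at day 6 and 4689 in C57BL/6J, and Adcy7 exons covered 86 bases of Chd9, which held 455 counts at day 6 and 2325 in C57BL/6J. Whether the reads in these rows came from the G protein genes was not tested, since the reads were not used.

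The agonist comparison asks whether AR420626 changed these genes in the cultures. At day 6, 4 of the 10 rows held enough counts to be tested (Gnaq, Gnas, Adcy7 and Pde4b), and none passed, where 11.4% of 9421 rows did (3.3% higher and 8.14% lower). The 10 rows together held 146 to 222 counts in each AR420626 library and 244 to 388 in each vehicle library, which overlapped as CPM of counts in genes (122 to 188 with AR420626 and 113 to 213 with vehicle). Rgs2 reached at most 10 counts with AR420626 and 6 with vehicle, and Rgs1 at most 14 and 13. The row of Gnas had the highest counts, 129, 66, 130, 63 and 91 with AR420626 and 234, 159, 172, 242 and 227 with vehicle (mice 1 to 5). As CPM of counts in genes the groups overlapped, 46.5 to 118 with AR420626 and 70.7 to 150 with vehicle, and the log2 fold change of -0.68 ± 0.24 (SE) did not pass (adjusted p = 0.0656), except without mouse 3 (-0.82, adjusted p = 0.0476). Gnaq (-0.19 ± 0.45), Adcy7 (-0.17 ± 0.42) and Pde4b (0.23 ± 0.42, SE) had adjusted p values of 0.759 to 0.818.

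Of the rows reached from the G protein genes, that of Cacna2d2, onto which Gnai2 falls, was lower with AR420626. It had 348, 234, 279, 352 and 330 counts with AR420626 and 883, 614, 498, 1326 and 992 with vehicle, or 165 to 305 CPM against 381 to 590 CPM, with no overlap. The log2 fold change was -0.94 ± 0.23 (SE, adjusted p = 0.0066), and it passed with each mouse left out in turn (-1.04 to -0.84) but not without both mice 4 and 5 (-0.93, adjusted p = 0.122). The rows of Gm9515 (-0.49 ± 0.25, adjusted p = 0.204) and Gstm7 (-0.45 ± 0.31, adjusted p = 0.362), onto which Gnai3 falls, did not pass, nor did that of Gng7 (-0.13 ± 0.23, SE, adjusted p = 0.745).

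Of the 117 other pathway genes checked, 7 had a displacement of 0 at day 6 in both windows: Crem, Grk2, Adcy5, Adcy9, Gng3, Pkia and Plcb3. The rows of the windows around them thus best matched their own positions. For Gng3 the margin was small (r = 0.467 against 0.454 for the next best in the window of 4 Mb). Crem, a target and an effector of cAMP signalling, was higher with AR420626. It had 1746, 1584, 1670, 1428 and 1185 counts with AR420626 and 1366, 810, 675, 3419 and 788 with vehicle, or 1096 to 1510 CPM against 468 to 999 CPM, with no overlap. Its log2 fold change was 0.87 ± 0.25 (SE, adjusted p = 0.0224). The call was lost without the mouse block (0.79, adjusted p = 0.0805), without mouse 1 (0.86, adjusted p = 0.114), mouse 3 (0.69, adjusted p = 0.104) or mouse 5 (0.81, adjusted p = 0.119), without mice 4 and 5 (1.13, adjusted p = 0.0706) and with no filter on low counts (0.64, adjusted p = 0.698).

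Grk2, the kinase that desensitises G protein-coupled receptors, had 788 to 1020 CPM with AR420626 and 474 to 742 CPM with vehicle, again without overlap, but its log2 fold change of 0.47 ± 0.23 (SE) did not pass (adjusted p = 0.199). On rows of 10 or more counts throughout it was 0.67 and passed (adjusted p = 0.0241). Adcy5 (0.78 ± 0.57), Adcy9 (-0.64 ± 0.39), Gng3 (-0.88 ± 0.46), Pkia, an inhibitor of PKA (-0.72 ± 0.42), and Plcb3 (0.42 ± 0.56, SE) did not pass either, and Plcb3 turned to -0.10 without mouse 4.

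**Figure D4:**
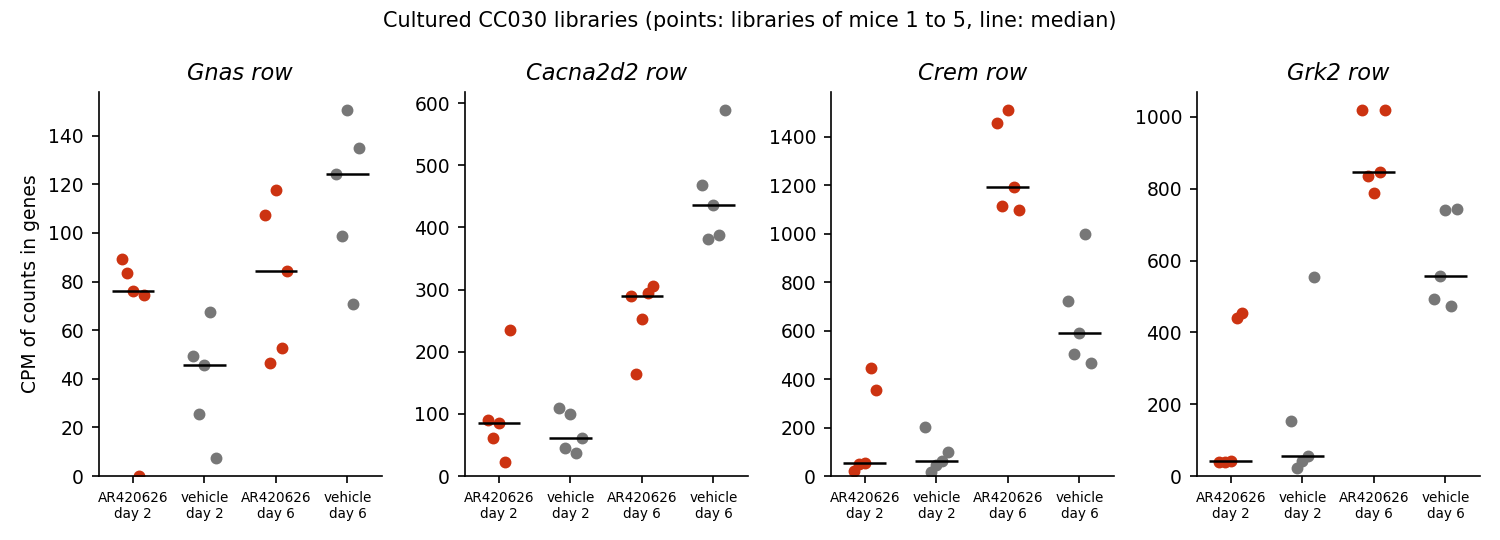
CPM of counts in genes for the rows of Gnas, Cacna2d2, Crem and Grk2 in the cultured CC030 libraries, 5 mice for each treatment and day, with the median as a line. At day 6 the AR420626 libraries lie under all vehicle libraries for Cacna2d2 (165 to 305 against 381 to 590 CPM) and above them for Crem (1096 to 1510 against 468 to 999 CPM), and overlap them for Gnas.

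No list had more than 1 row pass between AR420626 and vehicle at day 6, and at most 10 rows of a list were tested. With so few rows, these counts cannot be told apart from the share over all rows. Among further RGS genes 1 of 10 tested passed (Rgs22, 0.93 ± 0.26), among phosphodiesterases 1 of 9 (Pde7b, -2.36 ± 0.28), among cAMP effectors 1 of 10 (Crem), among phospholipase C beta and IP3 receptor genes 1 of 7 (Itpr2, -0.93 ± 0.23) and among CREB targets 1 of 5 (Dusp4, -0.82 ± 0.23, SE), against the 11.4% over all rows. No further G alpha, G beta or gamma, adenylyl cyclase or receptor kinase and arrestin row passed, and no free fatty acid receptor row could be tested. The rows of Rgs22 (70 kb), Itpr2 (35 kb) and Dusp4 (-1095 and -1110 kb) were displaced and that of Pde7b gave no single displacement, so whether these rows hold the genes they are named after was not tested. The call held for Pde7b with each mouse left out, and was lost for Rgs22 without mouse 1 or 4, for Itpr2 without mouse 1 and for Dusp4 without mouse 1, 3 or 4.

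At day 2 no row passed between AR420626 and vehicle, of 20865 tested (0%), so that all 10 of the genes were tested and none passed. At an unadjusted p under 0.05 there were 403 rows in edgeR, none of them one of the 10, and DESeq2 called 14 rows after adjustment. Gnas had 80, 98, 72, 0 and 76 counts with AR420626 and 59, 65, 52, 86 and 39 with vehicle, where the 0 is the library with 227445 counts in genes. Its log2 fold change was -0.07 ± 0.72 with that library and 0.52 without mouse 4. The effect of AR420626 differed between day 6 and day 2 for none of the 10 rows and for 0.0519% of 23141 rows (0.0389% with a higher and 0.013% with a lower effect at day 6). At an unadjusted p under 0.05 there were 1233 rows in edgeR, and DESeq2 called 75 rows and none of the 10. The lowest unadjusted p among the 10 was 0.0326, for Gnai2 (1.95 ± 0.88, SE, on the log2 scale, adjusted p = 0.922).

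Between day 6 and day 2, the Gnas row rose with vehicle. It held 70.7 to 150 CPM at day 6 and 7.33 to 67.6 CPM at day 2, without overlap, a log2 fold change of 2.69 ± 0.68 (SE, adjusted p = 0.0112), and was the one row called of the 6 tested, where 17.3% of 15819 rows passed (13.6% higher and 3.73% lower). The call was lost without mouse 1, 2 or 3 (adjusted p = 0.0748, 0.0693 and 0.0721). With AR420626 none of 8 rows tested passed, where 11.2% of 14731 rows did (10% higher and 1.14% lower). The Gnas row had 46.5 to 118 CPM at day 6 and 0 to 89.4 CPM at day 2, with a log2 fold change of 1.60 ± 0.65 (SE, adjusted p = 0.124), which passed with DESeq2 (1.78, adjusted p = 0.0323), without mouse 5 (2.02, adjusted p = 0.0264) and without mice 4 and 5 (1.62, adjusted p = 0.0025). Over the 20 cultured libraries, the protein-coding rows whose log2 CPM followed Gnas most closely, of 2864 with a mean of at least 50 counts, were Lipe (r = 0.97), Fgd3 (r = 0.94) and Elmod3 (r = 0.93). Those libraries share mice, differ in depth and in day, and include AR420626 mouse 4 at day 2, where Gnas had 0 counts. Values of r without that library are not given. The displacement around Lipe, Fgd3 and Elmod3 was not checked.

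The rows of Crem and Grk2 were higher at day 6 than at day 2 under both treatments, but their position was less certain at day 2. In the 10 day 2 libraries Grk2 stood at 0 in both windows (r = 0.55 and 0.45), and likewise without mouse 5 (r = 0.37 and 0.28), while Crem stood at -2915 kb in the window of 4 Mb and at 0 in that of 8 Mb, and at -2906 and -2916 kb without mouse 5. In naive CC030 neither was at 0 (2004 kb for Crem in both windows, and -195 and -1801 kb for Grk2). For Crem, time and displacement therefore cannot be told apart. Crem rose by 4.85 ± 1.38 with AR420626 and 4.32 ± 1.22 with vehicle, and Grk2 by 4.29 ± 1.25 with AR420626 and 4.05 ± 1.34 with vehicle (log2, SE), with adjusted p values of 0.0202 to 0.0443. Vehicle mouse 5 at day 2 already stood at 554 CPM for Grk2, where the other 4 mice had 23.4 to 152 CPM. With AR420626 at day 2, mice 4 and 5 had 440 and 455 CPM of Grk2, against 38.4 to 41.2 CPM in mice 1 to 3. For Crem they had 444 and 356 CPM, against 19.0 to 52.8 CPM in mice 1 to 3. These 2 libraries and vehicle mouse 5 held a count in 19356, 27775 and 32347 genes, against 42723 to 44975 in the other day 2 libraries. With AR420626 the calls of Crem and Grk2 were lost without mouse 1, 2, 3 or 4, and with vehicle likewise, while both held without mouse 5. Without the mouse block Crem passed with AR420626 (adjusted p = 0.0429) but not with vehicle (adjusted p = 0.0646), and Grk2 passed with neither (AR420626 3.01, adjusted p = 0.0742, and vehicle 0.92, adjusted p = 0.649). The row of Pkia, at 30 and 0 kb at day 2 and at 1451 and 1422 kb without mouse 5, rose with vehicle (2.07 ± 0.61, adjusted p = 0.0255), a call lost without mouse 2 or 4. That of Plcb3, at 0 in both windows at day 2 with and without mouse 5, fell with AR420626 (-1.498 ± 0.42, SE, adjusted p = 0.0326), a call lost with any 1 mouse left out.

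Ffar3 itself had 21, 25 and 30 counts in naive CC030 and 0 in each naive C57BL/6J library, at least 36.1-fold higher against a floor of 3 counts in each C57BL/6J library, and at most 6 counts in any day 6 library. This stands beside 64.1% of all rows tested that were higher in CC030, with a median over all rows of 7.03 on the log2 scale, so nothing particular to Ffar3 can be read from it. Around it, too, the day 6 rows were displaced, by -785 kb in both windows.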

How the data were processed

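The authors trimmed reads with fastp, aligned C57BL/6J reads to mm10 and CC030 reads to an mm9 pseudogenome with STAR, moved those alignments to mm10 with lapels, and deposited raw HTSeq counts per Ensembl gene in 2 tables. Names, strands and exon lengths came from GENCODE vM21 (GRCm38). No source used here gives the strand setting of HTSeq. Rows naming no gene were left out of library sizes. Rows were kept by filterByExpr (minimum count 10, total 15), scaled by TMM and tested with edgeR 4.0.16 in R 4.3.3 (robust quasi-likelihood F-test, Benjamini-Hochberg threshold 0.05). Each culture fit had a term for the mouse, since 1 mouse gave both treatments, and the strain fit had none. DESeq2 1.42.0 was an alternative. Levels in C57BL/6J used TMM within those 3 libraries. CPM of counts in genes used the raw totals. The SE of a fold change was taken from the F statistic.

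The displacement was searched in steps of 1 kb up to 3 Mb, with the C57BL/6J level laid along exons. Whole gene spans were tried first and gave broader peaks. Windows of 2 Mb, the pathway genes, the rows reached, the day 2 libraries (with and without mouse 5), and shares and ratios over the longest transcript were added after seeing the data. Correlations used numpy 2.4.6 and pandas 2.3.3. Both procedures were tested on simulated data simpler than these. For the position search these were C57BL/6J levels moved and given noise, so they say little about CC030 rows. For edgeR a small share of genes was changed equally often up and down, unlike the strain difference.

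The 10 genes, the lists and the tests were chosen with earlier results of these data known. Genes were named by rule: the 10 in every group, up to 4 genes of a list by level in C57BL/6J, up to 3 called genes of a list by p, Ffar3, rows reached from the 10, and the 3 rows most like a gene with at least 50 counts in every day 6 library. Sftpc, Lyz2, Cd3g, Cpa3, the other single markers, Pde4d, the genes beside a row reached and those with a displacement of 0 were named after their values were seen. Floors cover counting error only, and reads carry no molecular identifiers. The SD and SE given include the spread between libraries.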

Additional observations from a re-analysis of the deposited data

Results flagged for a closer look

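Among 52 groups of 5 libraries examined for the 10 genes and for Crem, Grk2 and Cacna2d2, 2 held a library far from the other 4, where chance gives about 1 in 20. The Gnas row was at 0 CPM in AR420626 mouse 4 at day 2, the library with 227445 counts in genes, where the other 4 mice had 74.4 to 89.4 CPM. The Grk2 row was at 554 CPM in vehicle mouse 5 at day 2, where the other 4 mice had 23.4 to 152 CPM. The causes were not tested.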

How the results depend on the processing

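Low counts limited the CC030 rows, and leaving out mice moved the culture counts. On rows with at least 10 counts in every library, the strain comparison called 5 of the 10 genes and 3573 genes. Gnai1, Gna11, Rgs1 and Rgs2 had a naive library under 10 counts and were not tested there. The difference between days called 6 genes, and day 6 over day 2 with vehicle called 2 of the 10. For those vehicle libraries only Gnas, Adcy7 and Pde4b, of the 10, had enough counts to be tested. Without mice 4 and 5, AR420626 over vehicle at day 6 called 361 genes, the difference between days 59, day 6 over day 2 with vehicle 2 of the 10 and 4337 genes, and with AR420626 1 of the 10 and 3458 genes. DESeq2 called 14 genes at day 2, 75 for the difference, and 1 of the 10 and 2806 genes for day 6 over day 2 with AR420626. With no filter on low counts, 15 genes were called at day 2, 20 for the difference and 2 of the 10 for day 6 over day 2 with vehicle. The numbers of rows tested under these settings are not given, here or below. Counts of the 10 therefore cannot be set against a share over all rows.

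With 1 mouse left out in turn, AR420626 over vehicle at day 6 called 0 to 1 of the 10 and 604 (without mouse 1) to 1221 genes. The difference between days called 0 (without mouse 1) to 33 genes (without mouse 5). Day 6 over day 2 called 0 to 2 of the 10 and 994 (without mouse 4) to 5376 genes (without mouse 5) with vehicle, and 0 to 1 of the 10 and 253 (without mouse 3) to 2772 genes (without mouse 5) with AR420626. Without mouse 1, 2, 3 or 4 the AR420626 count was 346, 380, 253 and 734, and without mouse 1, 2 or 3 the vehicle count was 1319, 1512 and 1346.

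The labels give each mouse in every culture condition, and without the replicate block the cultures called 995 genes at day 6, 0 at day 2, 2 for the difference, 1956 for the days with vehicle and 1580 with AR420626. Between the AR420626 and vehicle libraries of mice 1 to 5, correlations were 0.14, 0.37, -0.08, 0.06 and -0.02 at day 6. At day 2 they were -0.36, 0.55, 0.55, -0.29 and 0.60. The strain samples share only a number (correlations of -0.01 to 0.01), and with a replicate block 8 of the 10 genes and 26602 genes were called.

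Log2 fold changes that changed sign were not called under either setting. On rows with at least 10 counts in every library these were Grk2 between strains (0.22), Gng7 for AR420626 at day 6 (0.0646) and Adcy7 over days with vehicle (-0.83). With no filter they were Pde4b at day 6 (-0.000900), Adcy7 at day 2 (-0.00774), and Gnaq (0.00016) and Rgs1 (0.0698) over days with AR420626, which also turned with DESeq2 (0.0017 and 0.0412) and, for Rgs1, its size factors (0.0413). Without the block they were Gnai1 (-0.00841) and Gnas (0.0789) at day 2. Without mice 4 and 5 they were Gnai1 (-0.0358), Gnas (0.53) and Adcy7 (-0.23) at day 2, Rgs2 for the difference (0.13) and Plcb3 at day 6 (-0.11). With 1 sample left out, the ranges were -0.48 to 0.81 for Gna11 between strains, -0.34 to 0.0085 for Adcy7 and -0.10 to 0.79 for Plcb3 at day 6. At day 2 they were -0.40 to 0.25 for Gnai1, -0.79 to 0.0567 for Gnai2, -0.59 to 0.38 for Gnai3, -0.83 to 0.28 for Gna11, -0.30 to 0.52 for Gnas, -0.84 to 0.0087 for Rgs1, -0.19 to 0.14 for Adcy7 and -0.98 to 0.37 for Crem. For the difference they were -0.0472 to 1.04 for Gnaq, -0.18 to 1.42 for Gna11 and -0.0696 to 0.44 for Pde4b. Over days they were -1.52 to 0.11 for Gna11 with vehicle, and -0.54 to 0.25 for Gnaq, -0.19 to 0.42 for Rgs1 and -0.59 to 0.0040 for Pde4b with AR420626. Over the longest transcript the C57BL/6J levels of Gnai2, Gnas, Rgs2 and Pde4b were 70.5, 203, 933 and 16.04 CPM per kilobase. The causes were not tested.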
